A study of Mus musculus with 24 samples.

Results

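The genes described here are 35 components and regulators of DNA replication, picked by gene symbol from a count table of 49315 gene rows. Each of the 35 symbols was found. The cells were MS03, an immortalized Schwann cell line from a Nf2 flox/flox mouse in which Cre had removed Nf2, so every group including the controls is Nf2-/- and all libraries come from 1 line. Cells received DMSO, a focal adhesion kinase (FAK) inhibitor at 1 µM (defactinib, VS-4718, GSK2256098 or ifebemtinib, labelled IN10018), or a FAK-directed PROTAC, a molecule that joins its target to a ubiquitin ligase so that the target is degraded. The PROTACs were PROTAC FAK Degrader 1 at 1 µM, and GSK215 and BSJ-04-146 (also labelled BSJ-04-0146) at 0.1 µM. Poly(A) RNA was sequenced after 24 h in 3 libraries for each of the 8 groups. The labels call these biological replicates without saying whether they were separate cultures, so the tests measure the spread between these libraries.

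Before S phase, the origin recognition complex, CDC6 and CDT1 load the MCM2-7 helicase onto DNA, and CDC7 kinase, CDC45, MCM10 and the GINS complex then turn it into an active helicase. Primase and the replicative polymerases copy the strands, the PCNA clamp and its RFC loader hold the polymerases on DNA, RPA coats single strands, and FEN1 and LIG1 join the lagging strand. Ribonucleotide reductase and thymidylate synthase supply the deoxynucleotides, and many of these genes are known targets of E2F transcription factors, which are silenced by RB-family proteins outside late G1 and S phase.

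The promoter stretches that follow are shown because E2F sites are the regulatory sequence for which this gene class is known. An E2F motif was searched as TTTCCCGC, TTTCGCGC, TTTGCCGC or TTTGGCGC on both strands in the 300 bases from 250 before to 50 after each start (RefSeq, GRCm38.p6). Promoters were matched for 30 of the 35 genes, and 13 of the 30 (43.3%) held a match, beside 704 of 27025 genes in the whole promoter table (2.6%). In the 250 bases before the start alone, the shares were 30% and 2.16%. Where the table lists several starts for a gene, a match at any of them counted. Of the 13 genes 10 are printed, 9 with a match before the start and Cdt1, while the matches of Mcm3, Lig1 and Pold1 lie after the start and are not shown. The Uhrf1 stretch belongs to the later of its listed starts, inside the gene, and the start near the 5′ end of the gene held no match. The Mcm7 stretch belongs to 1 of its listed starts, and the other held none. Matches are in capitals, written 5′ to 3′ on the gene's strand, and 2 matches that overlap on opposite strands run together in Mcm5 and Mcm6.
Cdc6, chr11:98907987-98908046, + strand: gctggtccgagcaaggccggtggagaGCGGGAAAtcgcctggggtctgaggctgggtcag
Orc1, chr4:108579394-108579453, + strand: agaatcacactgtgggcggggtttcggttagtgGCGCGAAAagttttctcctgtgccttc
Mcm5, chr8:75109330-75109389, + strand: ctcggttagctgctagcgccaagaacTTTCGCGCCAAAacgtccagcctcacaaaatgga
Mcm6, chr1:128359782-128359841, - strand: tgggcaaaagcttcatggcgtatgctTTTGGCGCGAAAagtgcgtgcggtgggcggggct
Mcm7, chr5:138172015-138172074, - strand: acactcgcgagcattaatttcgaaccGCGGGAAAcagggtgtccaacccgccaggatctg
Gins3, chr8:95633492-95633551, + strand: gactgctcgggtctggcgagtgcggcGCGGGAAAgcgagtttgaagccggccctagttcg
Rfc3, chr5:151651209-151651268, - strand: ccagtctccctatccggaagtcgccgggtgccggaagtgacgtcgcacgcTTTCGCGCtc
Pola1, chrX:93632260-93632319, - strand: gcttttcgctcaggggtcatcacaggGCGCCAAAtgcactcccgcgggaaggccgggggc
Uhrf1, chr17:56304102-56304161, + strand: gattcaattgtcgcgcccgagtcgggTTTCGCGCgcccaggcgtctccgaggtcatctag
Cdt1, chr8:122568039-122568062, + strand, after the start: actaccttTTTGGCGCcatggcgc

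The 60 bases before the starts of Rrm2 and Pcna are given for contrast, since these genes moved strongly. Neither held one of the 4 spellings in its 300 bases. The search took exact letters in that window only, so other spellings or more distant E2F sites were not looked for.
Rrm2, chr12:24708194-24708253, + strand: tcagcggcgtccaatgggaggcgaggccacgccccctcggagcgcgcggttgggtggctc
Pcna, chr2:132253181-132253240, - strand: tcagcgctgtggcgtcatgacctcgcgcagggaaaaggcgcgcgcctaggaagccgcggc

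With PROTAC FAK Degrader 1, where 32.7% of all genes tested were lower and 34.1% higher, 12 of the 13 genes with a match were lower and 1, Cdt1, was higher (median log2 fold change -0.64), and of the 17 matched genes without one, 16 were lower (median -0.85). The CCAAT box, CCAAT on either strand, lay in 66.7% of the 30 promoters beside 41.1% of all, and the CHR element, TTTGAA, in 16.7% beside 20.2%.

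Libraries held 14472462 to 27449516 counts, with the PROTAC libraries the shallower ones. All 35 genes passed the filter on low counts, with 248 counts or more in every library. Ptk2, which encodes FAK, averaged 95.3 CPM (counts scaled to library size) in DMSO and 97.7 with PROTAC FAK Degrader 1. It was lower with 5 of the 7 compounds, by 0.13 to 0.29 on the log2 scale. PROTACs act on protein, so the transcript is no check of the labels. Nf2 kept 2360 to 5066 counts per library in all groups, and the share of these from exons outside the deletion was not analysed here. Of 8 Schwann cell markers 7 passed the filter, with 238 to 2080 counts per library for Sox10, but the defining genes S100b and Gfap had at most 18 and 9 counts. The summed level of the list ran from 38.1 to 40.1 CPM in DMSO, 26.1 to 29.5 with PROTAC FAK Degrader 1, 202 to 208 with GSK215 and 179 to 197 with BSJ-04-146. With the kinase inhibitors it ran from 57.6 to 63.5 CPM for defactinib, 92.8 to 104 for VS-4718, 55.5 to 59.4 for GSK2256098 and 38.3 to 41.8 for ifebemtinib. The pan-leukocyte gene Ptprc and the macrophage gene Adgre1 had at most 1 count in any library, the fibroblast genes Dcn and Lum at most 3 and 0, and none of 5 endothelial markers passed the filter. Of the fibroblast markers 4 of 6 passed, with summed levels of 1750 to 1800 CPM in DMSO 1030 to 1040 with PROTAC FAK Degrader 1, 1700 to 1750 with GSK215, 1380 to 1460 with BSJ-04-146, 1550 to 1620 with VS-4718 and 1600 to 1860 with the other kinase inhibitors, mostly from the collagens Col1a1 and Col1a2. Of 6 macrophage markers 2 passed, with summed levels of 3.71 to 4.1 CPM in DMSO, 11.2 to 12 with PROTAC FAK Degrader 1, 6.2 to 7.88 with GSK215, 7.9 to 9.34 with BSJ-04-146 and 3.79 to 6.21 with the kinase inhibitors, mostly from Cd68, a lysosomal protein. The part of these marker changes in the results was not tested.

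In DMSO the genes spanned a wide range of levels. Per kilobase of exon, Pcna was the highest at 201 ± 2.46 CPM (SD, n = 3), followed by the helicase subunit Mcm3 at 139.6 ± 2.07 and Rrm2, the small subunit of ribonucleotide reductase, at 91.7 ± 1.02. The other MCM2-7 subunits lay close together, from 83.6 ± 1.04 for Mcm7 to 67.3 ± 0.902 for Mcm2, and Mcm5 (80.3 ± 0.628) and Mcm6 (79.9 ± 0.413) did not differ beyond their spread. The lowest were Orc1 at 8.91 ± 0.463, Gins3 at 6.66 ± 0.427 and Gins2 at 5.76 ± 0.157. The length used joins all annotated exons of a gene, so this order depends on the annotation as well as on the level. In CPM without length, the highest DMSO means were Mcm3 (523.8), Pcna (481.9), Mcm2 (468.5) and Rrm1 (466.3). The plot of levels per kilobase shows that PROTAC FAK Degrader 1 changed the order per kilobase, with Rrm2 falling further than its neighbours and Cdt1 moving up.

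**Figure D1:**
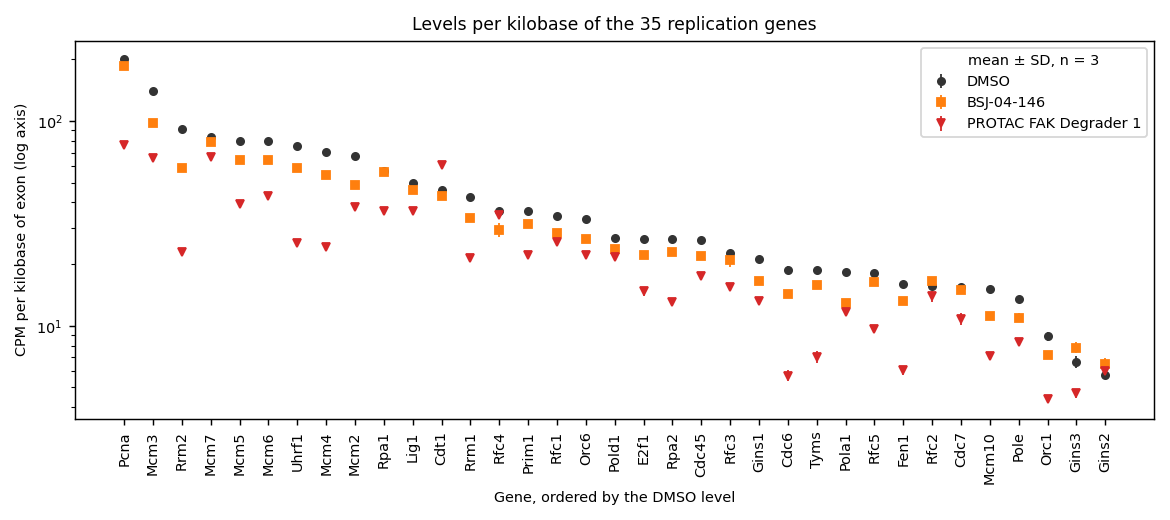
Mean level per kilobase of exon (CPM per kb, log axis) of each of the 35 genes, ordered by the DMSO level, in DMSO (circles), BSJ-04-146 (squares) and PROTAC FAK Degrader 1 (triangles); bars are the SD of 3 libraries. With PROTAC FAK Degrader 1 most genes lie below their DMSO level, while Cdt1 lies above it and Gins2 and Rfc4 near it.

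Replication genes were lower with each PROTAC, by far the most with PROTAC FAK Degrader 1. In that group 32 of the 35 genes were lower and 1 was higher at an edgeR adjusted p under 0.05, while 32.7% of all 16070 genes tested were lower and 34.1% higher. The median log2 fold change of the 35 was -0.70, against 0.01 for all genes. At least 2-fold lower were 12 of the 35 (34.3%), against 6.28% of all genes. Together the 35 genes made up 0.627 ± 0.000917% of counts in DMSO and 0.372 ± 0.00185% with PROTAC FAK Degrader 1 (SD, n = 3). In RNA from whole cultures, fewer cells in S phase and less of each transcript per cell cannot be told apart.

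At 0.1 µM, GSK215 and BSJ-04-146 lowered nearly as many genes by less. With GSK215, 30 genes were lower and 1 higher (27.2% and 27.4% of all genes), with a median of -0.30 against 0.02 for all. With BSJ-04-146, 29 were lower and 2 higher (26.9% and 27.7% of all genes), with a median of -0.27 against 0.02. With library totals in place of TMM factors, the median of all genes moved to 0.14 with GSK215 and 0.13 with BSJ-04-146. With 1 library left out, 0 to 2 were higher with GSK215 and 1 to 3 with BSJ-04-146. With library totals the counts became 24 lower and 5 higher with GSK215 and 23 lower and 4 higher with BSJ-04-146. On that scale the members' median minus that of all genes was -0.33 with GSK215 and -0.28 with BSJ-04-146.

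The kinase inhibitors moved these genes little. With defactinib 18 were lower, against 11.0% of all genes, and 0 were higher in the edgeR fit, against 11.4% of all genes. The count of genes higher was also 0 at an unadjusted p under 0.05, with DESeq2 and with limma. With VS-4718, 19 were lower and 3 higher (18.9% and 20.4% of all genes), or 11 lower and 7 higher with library totals, and 1 to 2 higher when any 1 library was left out. With GSK2256098, 4 were lower (6.09% of all genes) and 0 higher (6.36%), with 1 higher at an unadjusted p under 0.05 and 0 with DESeq2 and limma. The count lower was 1 to 3 when any 1 library was left out. With ifebemtinib, 3 were lower and 2 higher (6.85% and 6.44% of all genes), or 1 to 2 higher with 1 library left out. The medians were -0.11, -0.09, -0.01 and -0.02 in the same order, against values within 0.01 of 0 for all genes. With library totals that of VS-4718 was -0.051 and that of GSK2256098 turned to 0.001. All 7 comparisons use the same 3 DMSO libraries.

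**Figure D2:**
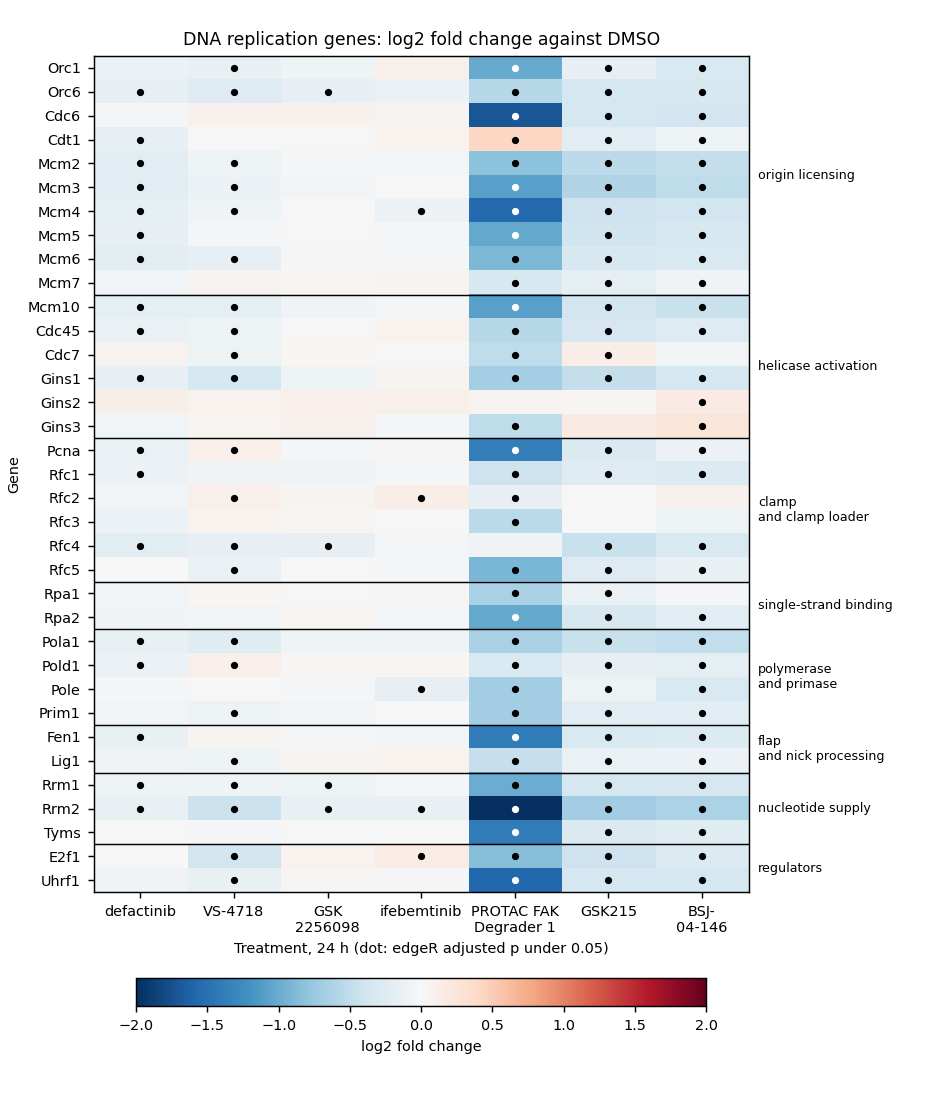
Log2 fold change against DMSO (colour, -2 to 2) of the 35 genes, grouped by role, with each of the 7 compounds at 24 h; a dot marks an edgeR adjusted p under 0.05. The column of PROTAC FAK Degrader 1 is blue in all role groups apart from Cdt1, which is red, and Gins2 and Rfc4, which carry no dot.

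**Figure D3:**
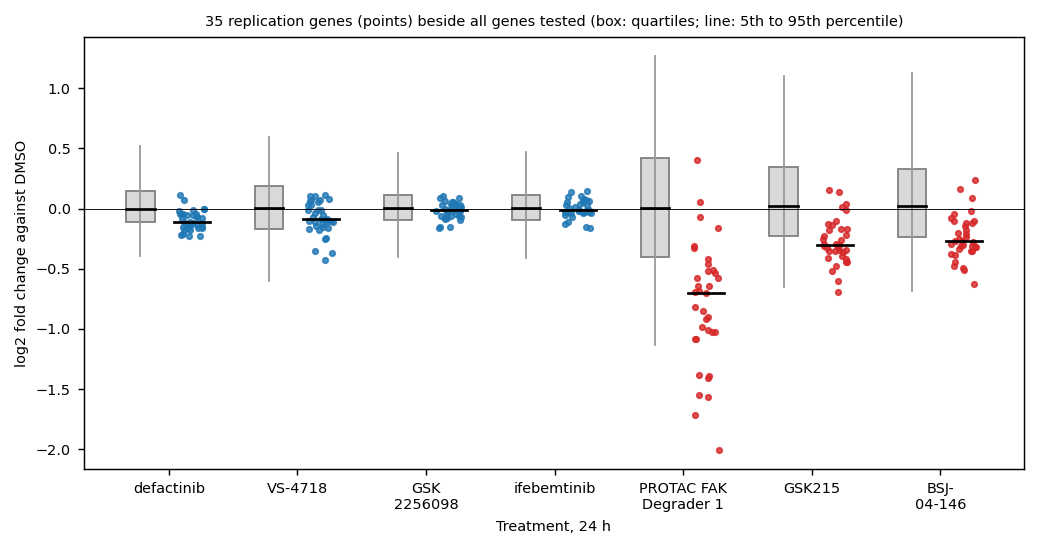
Log2 fold change against DMSO of the 35 genes (points, with a bar at their median) beside all 16070 genes tested (box: quartiles, line: 5th to 95th percentile) for each compound. The medians of the 35 sit at -0.70, -0.30 and -0.27 with the PROTACs PROTAC FAK Degrader 1, GSK215 and BSJ-04-146.

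Of the 10 origin licensing genes, 9 fell and Cdt1 rose with PROTAC FAK Degrader 1, and all 10 fell with GSK215 and with BSJ-04-146, where 32.7%, 27.2% and 26.9% of all genes were lower. With library totals the calls of Orc1 and Mcm7 with GSK215 and of Cdt1 and Mcm7 with BSJ-04-146 were lost. Cdc6, the ATPase that joins the origin recognition complex to load the helicase, had 103, 94.7 and 96.6 CPM in DMSO. It had 28.4, 32 and 29.1 with PROTAC FAK Degrader 1, 80.2, 77.3 and 73.5 with GSK215, and 74.4, 76.7 and 73.5 with BSJ-04-146. All libraries of each PROTAC lay below all DMSO libraries, and those of PROTAC FAK Degrader 1 were far below the rest. The log2 fold change was -1.72 ± 0.046 (SE) with PROTAC FAK Degrader 1 (adjusted p = 4.2e-29), -0.35 with GSK215 and -0.39 with BSJ-04-146. The 12 kinase inhibitor libraries ran from 94.1 to 106.8 CPM, around the DMSO values, and none of these drugs changed Cdc6 past the threshold.

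Cdt1, the licensing factor that geminin blocks (GRCm38 chr8:122568015-122573554, + strand), went the other way with PROTAC FAK Degrader 1. Its libraries held 196, 191 and 186 CPM against 144, 146 and 144 in DMSO, with no overlap. The log2 fold change was 0.41 ± 0.035 (adjusted p = 4.5e-13), the largest rise in this group of genes with any compound. GSK215 libraries, at 120, 123 and 126 CPM, lay below DMSO (-0.23, adjusted p = 1.4e-06). With BSJ-04-146 the 137, 132 and 134 CPM also lay below DMSO (-0.10, adjusted p = 0.0186), a call that was lost without BSJ-04-146 replicate 2 or DMSO replicate 2 and turned to 0.01 with library totals. The level was 132.5% of DMSO with PROTAC FAK Degrader 1, 85.2% with GSK215 and 93.3% with BSJ-04-146.

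The MCM2-7 helicase subunits moved together but by unequal amounts. All 6 were lower with each PROTAC (26.9% to 32.7% of all genes), from -1.55 (Mcm4) to -0.33 (Mcm7) with PROTAC FAK Degrader 1, from -0.60 (Mcm3) to -0.18 (Mcm7) with GSK215 and from -0.51 (Mcm3) to -0.08 (Mcm7) with BSJ-04-146. With library totals the Mcm7 call for GSK215 was lost (-0.05), and the value for BSJ-04-146 turned to 0.03. The BSJ-04-146 call was also lost without replicate 1 or 3 of either group. Other genes, among them Cops6 and Ap4m1 on the other strand, lie over 12.6% of the Mcm7 exon bases, and their part was not tested. Mcm2 had 466, 476 and 464 CPM in DMSO, 274, 260 and 263 with PROTAC FAK Degrader 1, 321, 326 and 335 with GSK215, and 333, 330 and 348 with BSJ-04-146. Mcm7 had 372, 364 and 373 CPM in DMSO and 298, 298 and 288 with PROTAC FAK Degrader 1, 324, 324 and 334 with GSK215, and 349, 356 and 347 with BSJ-04-146, so its libraries also stood apart from DMSO at a much smaller distance.

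Mcm4 fell to 34.2% of DMSO with PROTAC FAK Degrader 1, while Mcm2 and Mcm6 stayed at 56.7% and 53.6%. Defactinib lowered 5 of the 6 subunits (11.0% of all genes were lower), by 0.16 to 0.23 on the log2 scale, and Mcm7 did not pass the threshold (-0.06, adjusted p = 0.183). VS-4718 lowered 4 of them (18.9% of all genes), though over all 35 genes its count lower went from 19 to 11 with library totals. Ifebemtinib (6.85% of all genes) lowered Mcm4 alone (-0.12, adjusted p = 0.00388). Orc1 and Orc6, subunits of the origin recognition complex, fell to 49.5% and 67% of DMSO with PROTAC FAK Degrader 1. With GSK215 and BSJ-04-146 Orc1 stood at 88.8% (a call lost without DMSO replicate 1 or with library totals) and 80.7%, and Orc6 at 78.6% and 80.3%.

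Of the 6 helicase activation genes, 5 fell with PROTAC FAK Degrader 1 (32.7% of all genes were lower), and the remaining one, Gins2, had the narrowest range of group means of all 35 genes. Mcm10, an activator of the loaded helicase, had 115, 118 and 115 CPM in DMSO, 56.1, 54.3 and 54.5 with PROTAC FAK Degrader 1, 91.1, 90.4 and 89.8 with GSK215, and 86.1, 85.7 and 84.7 with BSJ-04-146. These 4 sets of libraries did not overlap, and the log2 fold changes were -1.08, -0.36 and -0.44. Gins2, a subunit of the GINS complex (GRCm38 chr8:120578633-120589304, - strand), had 22.9, 24.2 and 23.7 CPM in DMSO and 24.6, 23.5 and 25.5 with PROTAC FAK Degrader 1, which overlap (0.05 ± 0.063, adjusted p = 0.457). With GSK215 it had 23.8, 23.6 and 25.3 CPM and did not pass (0.04, or 0.16 and past the threshold with library totals), and with BSJ-04-146 it had 27.7, 27.6 and 24.2 CPM (0.17, adjusted p = 0.0247). That call was lost with DESeq2, with no filter, without BSJ-04-146 replicate 1 or 2 and without DMSO replicate 1 or 3. Gse1 lies on the other strand over 67.3% of the exon bases of Gins2. Its own counts rose with all 3 PROTACs (log2 fold change 0.78 with PROTAC FAK Degrader 1). They also rose with defactinib (0.25), VS-4718 (0.86) and GSK2256098 (0.39), but not with ifebemtinib (-0.06). Whether the counting used strand is not given in the sources used here.

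Gins1 and Gins3, of the same complex, fell with PROTAC FAK Degrader 1, while Gins4, its remaining subunit and no member of the 35, rose from 52.7, 55.3 and 52 CPM in DMSO to 67.3, 68.8 and 67 (0.34, adjusted p = 1.4e-08). Gins1 was lower with all PROTACs (-0.68, -0.48 and -0.35 for PROTAC FAK Degrader 1, GSK215 and BSJ-04-146). Gins3 was lower with PROTAC FAK Degrader 1 (-0.51) and higher with BSJ-04-146 (0.24, adjusted p = 0.00476). With GSK215 it did not pass (0.16, adjusted p = 0.0588), though it did with library totals and without DMSO replicate 1 or GSK215 replicate 1. It was the largest rise with BSJ-04-146, at 22.4, 21.3 and 19.9 CPM against 19.4, 17.3 and 17.5 in DMSO. Cdc7, the kinase that fires licensed origins, fell with PROTAC FAK Degrader 1 (-0.51). In the main fit with GSK215 it was the only one of the 35 to rise (0.14, adjusted p = 0.00768). It had 72.4, 73.2 and 67.7 CPM against 63.6, 63.7 and 66.2 in DMSO, and the call was lost without GSK215 replicate 2. With library totals 5 of the 35 were higher, and 2 with only the 6 libraries compared. Cdc45, a part of the active helicase, fell with each PROTAC, to 67%, 79.6% and 84% of DMSO.

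With PROTAC FAK Degrader 1, 5 of the 6 clamp and clamp loader genes fell (32.7% of all genes), Pcna the most. It had 489, 479.7 and 477 CPM in DMSO and 187, 185 and 180.4 with PROTAC FAK Degrader 1, a level of 38.2% of DMSO (log2 fold change -1.39 ± 0.031, adjusted p = 1.7e-31). GSK215 libraries, with 389, 392 and 399 CPM, and BSJ-04-146 libraries, with 462, 443 and 427, also lay below DMSO (-0.29 and -0.12). The BSJ-04-146 call was lost with library totals (-0.01). The pseudogene Pcna-ps2 held 16 to 98 counts per library, against 3435 or more for Pcna.

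The RFC subunits form 1 complex but did not move as a unit. Genes on the other strand lie over 15.1% of the exon bases of Rfc2, 12.7% of Rfc4 and 10.7% of Rfc5. The part of these overlaps was not tested. With PROTAC FAK Degrader 1, Rfc5 fell most (-0.92), Rfc3 and Rfc1 less (-0.54 and -0.42) and Rfc2 least (-0.16, lost with library totals). Rfc4 did not pass the threshold (-0.07, adjusted p = 0.252), with 53, 55 and 51.8 CPM beside 56.6, 56.7 and 54.3 in DMSO, which overlap. With GSK215 and BSJ-04-146, in contrast, Rfc4 had the lowest fold change of the loader genes (-0.45 and -0.30). Rfc2 had the narrowest range of the clamp and loader genes, with 99.8, 99.6 and 96 CPM in DMSO, 92.5, 88.8 and 82.3 with PROTAC FAK Degrader 1, 96.8 to 100.8 with GSK215, and 106, 108 and 100.2 with BSJ-04-146. Its BSJ-04-146 libraries lay above DMSO, but the difference did not pass (0.09, adjusted p = 0.0581), except without BSJ-04-146 replicate 3, with only the 6 libraries compared or with library totals (0.20).

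Rpa1 and Rpa2, for the larger subunits of the single-strand binding complex, fell with PROTAC FAK Degrader 1. The remaining subunit gene, Rpa3, is no member of the 35 and stood at 105.1% of DMSO with that compound, which did not pass the threshold, and rose with GSK215 (0.13) and BSJ-04-146 (0.26). Rpa2 had 77.3, 80.8 and 79.6 CPM in DMSO, 39.4, 38.1 and 39.2 with PROTAC FAK Degrader 1, 62.6, 63.3 and 65 with GSK215, and 66.7, 72.1 and 67.1 with BSJ-04-146. Rpa1 had 329, 308 and 318 CPM in DMSO, 205, 206 and 199 with PROTAC FAK Degrader 1, 288, 293 and 291 with GSK215, and 315, 315 and 313 with BSJ-04-146. Every PROTAC library lay below DMSO for Rpa2, while for Rpa1 those of BSJ-04-146 overlapped DMSO and did not pass the threshold. The log2 fold changes with PROTAC FAK Degrader 1 were -1.02 for Rpa2 and -0.65 for Rpa1.

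The 4 polymerase and primase genes among the 35 were lower with each PROTAC, where 32.7%, 27.2% and 26.9% of all genes were lower with PROTAC FAK Degrader 1, GSK215 and BSJ-04-146. Prim1, the catalytic subunit of primase, had 143, 139 and 139 CPM in DMSO, 88.2, 86.6 and 83.3 with PROTAC FAK Degrader 1, 124, 120.1 and 117 with GSK215, and 124, 121 and 119 with BSJ-04-146. Pold1, the catalytic subunit of polymerase delta, changed least of the 4 with PROTAC FAK Degrader 1, with 129, 128 and 133 CPM in DMSO and 110.4, 102 and 103 with PROTAC FAK Degrader 1 (-0.31, adjusted p = 2.9e-08), 109, 118.5 and 119 with GSK215 and 117, 114 and 115 with BSJ-04-146. Its calls with GSK215 and BSJ-04-146 were lost with library totals (-0.05 and -0.07). Pola1, the subunit of polymerase alpha that extends primers, stood at 64%, 73.4% and 70.9% of DMSO with PROTAC FAK Degrader 1, GSK215 and BSJ-04-146. Pole, the leading-strand polymerase, separated the low-dose PROTACs, with -0.30 for BSJ-04-146 and -0.11 for GSK215. The GSK215 value turned to 0.02 with library totals, and its call was lost without GSK215 replicate 2 or 3.

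For lagging-strand maturation, Fen1, the flap nuclease (GRCm38 chr19:10199132-10204169, - strand), had 37.3, 39.7 and 38.7 CPM in DMSO, 14.2, 14.4 and 15.5 with PROTAC FAK Degrader 1, 30.9, 29.8 and 33 with GSK215, and 31.8, 33.2 and 31.3 with BSJ-04-146. The fold changes were -1.39, -0.30 and -0.27. Other genes lie over 84.2% of the exon bases of Fen1, mainly Tmem258 on the opposite strand, and Tmem258 did not change with PROTAC FAK Degrader 1 past the threshold (log2 fold change -0.02). Gm10143, which also overlaps Fen1 on that strand, fell (-1.74) at 10 to 74 counts per library. Lig1, the ligase that seals nicks, moved less, with 215, 216 and 209 CPM in DMSO and 157, 159 and 148 with PROTAC FAK Degrader 1 (-0.46). GSK215 libraries held 191, 193.5 and 197 CPM and BSJ-04-146 libraries 199, 202 and 189, all below every DMSO library. Its small differences with GSK215 and BSJ-04-146 (-0.14 and -0.12) were lost with library totals.

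Nucleotide supply held the steepest fall. Rrm2 (GRCm38 chr12:24708241-24714146, + strand) had 257, 253 and 252 CPM in DMSO and 63, 62.8 and 64 with PROTAC FAK Degrader 1, which is 24.9% of DMSO (log2 fold change -2.005 ± 0.031, adjusted p = 1.5e-36). It was the only one of the 35 to be lower with all 7 compounds, which are compared with the same DMSO libraries. The share of all genes lower with all 7 was not counted. GSK215 libraries held 160.4, 157 and 155 CPM, BSJ-04-146 libraries 166, 165 and 162, and VS-4718 libraries 188, 189 and 191. Defactinib, GSK2256098 and ifebemtinib libraries lay between 224 and 234, below all DMSO libraries, at -0.15 each. In order of level, DMSO was followed by those 3 inhibitors, which lay within each other's spread, then VS-4718, BSJ-04-146, GSK215 and PROTAC FAK Degrader 1, and the difference between GSK215 and BSJ-04-146 did not pass the threshold.

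Rrm1, the large reductase subunit, fell less than Rrm2. It had 464, 473 and 461 CPM in DMSO, 229, 243 and 236 with PROTAC FAK Degrader 1, 369, 357 and 371 with GSK215, and 373, 367 and 370.0 with BSJ-04-146, with no overlap between DMSO and any PROTAC. Tyms, thymidylate synthase, stood at 37.7% of DMSO with PROTAC FAK Degrader 1 (-1.41), 81.5% with GSK215 and 84.9% with BSJ-04-146. The kinase inhibitors left it between 98.9% and 100.7% of DMSO, and none passed the threshold.

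Both regulators fell with each PROTAC (26.9% to 32.7% of all genes were lower). E2f1, which activates S phase genes, had 81, 82.9 and 86.9 CPM in DMSO, 46.2, 48.7 and 44.3 with PROTAC FAK Degrader 1, 62.6, 64.3 and 60.9 with GSK215, and 69.4, 67.7 and 71.6 with BSJ-04-146. With VS-4718 it held 68.5, 64.5 and 61.6 CPM, below DMSO (-0.37, adjusted p = 1.2e-08). With ifebemtinib it held 97.4, 88.9 and 92, above DMSO (0.15, adjusted p = 0.0174), a call lost without DMSO replicate 1 or 2 or ifebemtinib replicate 1. Uhrf1, which binds newly replicated hemimethylated DNA, had 317, 316 and 331 CPM in DMSO, 109.9, 109 and 107 with PROTAC FAK Degrader 1 (-1.56, adjusted p = 8.0e-34), 251, 253 and 254 with GSK215, and 247, 258 and 251 with BSJ-04-146. VS-4718 lowered it by 0.15 on the log2 scale, and with defactinib it missed the threshold (-0.07, adjusted p = 0.0539), though not with DESeq2.

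**Figure D4:**
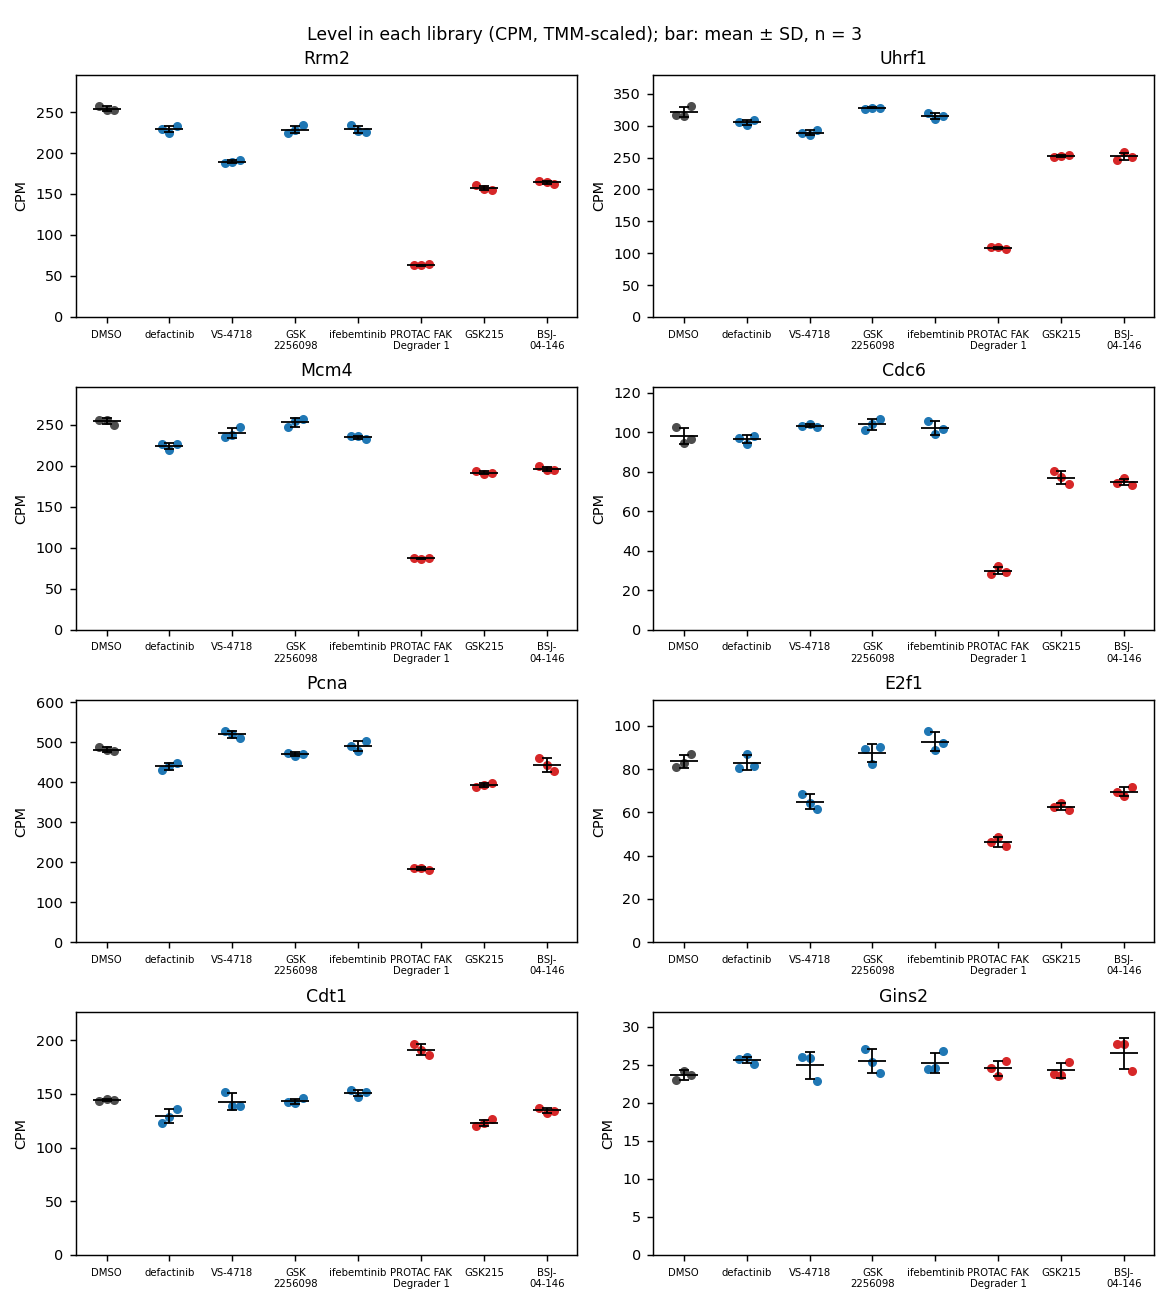
Level (CPM, axis from 0) of Rrm2, Uhrf1, Mcm4, Cdc6, Pcna, E2f1, Cdt1 and Gins2 in each of the 24 libraries, with the mean ± SD of 3 libraries; DMSO grey, kinase inhibitors blue, PROTACs red. PROTAC FAK Degrader 1 libraries are the lowest for the first 6 genes and the highest for Cdt1, while all groups of Gins2 lie between 22.9 and 27.7 CPM.

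The largest changes past the threshold with each kinase inhibitor were small. With defactinib Mcm6 fell most (-0.23, adjusted p = 1.0e-07), at 328, 308 and 319 CPM against 371, 372 and 375 in DMSO, without overlap. With VS-4718 Rrm2 fell most (-0.42, adjusted p = 1.1e-15) and Pcna rose most (0.11, adjusted p = 0.00296), at 527, 521 and 511 CPM, above all DMSO libraries. The other rises with VS-4718 were in Rfc2 (0.11) and Pold1 (0.10). Both calls were lost when any DMSO library was left out, that of Rfc2 also without VS-4718 replicate 2 or 3, and that of Pold1 also without VS-4718 replicate 1 or 2, with DESeq2 and with limma. With GSK2256098 Rfc4 fell most (-0.16, adjusted p = 0.0309), at 50.6, 50.9 and 48 CPM against 56.6, 56.7 and 54.3 in DMSO, a call lost without DMSO replicate 1 or 2 or GSK2256098 replicate 3. With ifebemtinib Pole fell most (-0.16, adjusted p = 7.5e-04), at 136, 135 and 131 CPM against 149, 151 and 151 in DMSO, and E2f1 rose most.

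Compounds at the same dose and time were then compared directly in 3 pairs. VS-4718 and defactinib, both kinase inhibitors at 1 µM, differed in 20 of the 35 genes, with 13 higher under VS-4718 (18.0% of all genes) and 7 lower (16.0% of all genes), or 3 lower without VS-4718 replicate 2. The 13 included 5 of the MCM2-7 subunits, by 0.10 to 0.12 on the log2 scale, and Pcna (0.24, 95% interval 0.175 to 0.301, adjusted p = 3.3e-08). Among the MCM genes the call was lost for Mcm2 without defactinib replicate 1 or 2 or VS-4718 replicate 1, for Mcm3 without replicate 1 of either group, and for Mcm4 without defactinib replicate 2 or VS-4718 replicate 3. The lower ones were led by E2f1 (-0.35, interval -0.447 to -0.258, adjusted p = 4.9e-08) and Rrm2 (-0.28, interval -0.334 to -0.217, adjusted p = 2.7e-10). Rrm1 did not differ past the threshold, with an interval from -0.06 to 0.059.

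PROTAC FAK Degrader 1 and defactinib, a degrader and an inhibitor at 1 µM, differed in 34 genes. With the degrader 32 were lower, against 34.0% of all genes, and 2 were higher, against 34.9%. The largest difference was in Rrm2 (-1.86, interval -1.922 to -1.79, adjusted p = 2.1e-35) and the highest in Cdt1 (0.57, interval 0.49 to 0.642, adjusted p = 3.3e-17). Rfc4 was also higher (0.16), a call lost without defactinib replicate 3, and Gins2 did not differ past the threshold (interval -0.193 to 0.071).

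GSK215 and BSJ-04-146, both PROTACs at 0.1 µM, differed in 9 genes. Under GSK215, 2 were higher (9.88% of all genes) and 7 lower (12.6% of all genes). The count lower was 2 to 5 when any 1 library was left out, 3 with no filter and 4 with only the 6 libraries compared. The higher ones were Pole (0.19, interval 0.117 to 0.269, adjusted p = 7.7e-05) and Cdc7 (0.19, adjusted p = 0.00244). The lower ones were led by Pcna (-0.17, interval -0.239 to -0.11, adjusted p = 3.0e-05) and E2f1 (-0.15, adjusted p = 0.0209). The E2f1 call was lost without GSK215 replicate 1 or 3 or BSJ-04-146 replicate 3. Rrm2, Mcm4 and Uhrf1 did not pass. For Rrm2 the interval ran from -0.125 to 0.001, for Mcm4 from -0.096 to 0.028 and for Uhrf1 from -0.057 to 0.065.

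**Figure D5:**
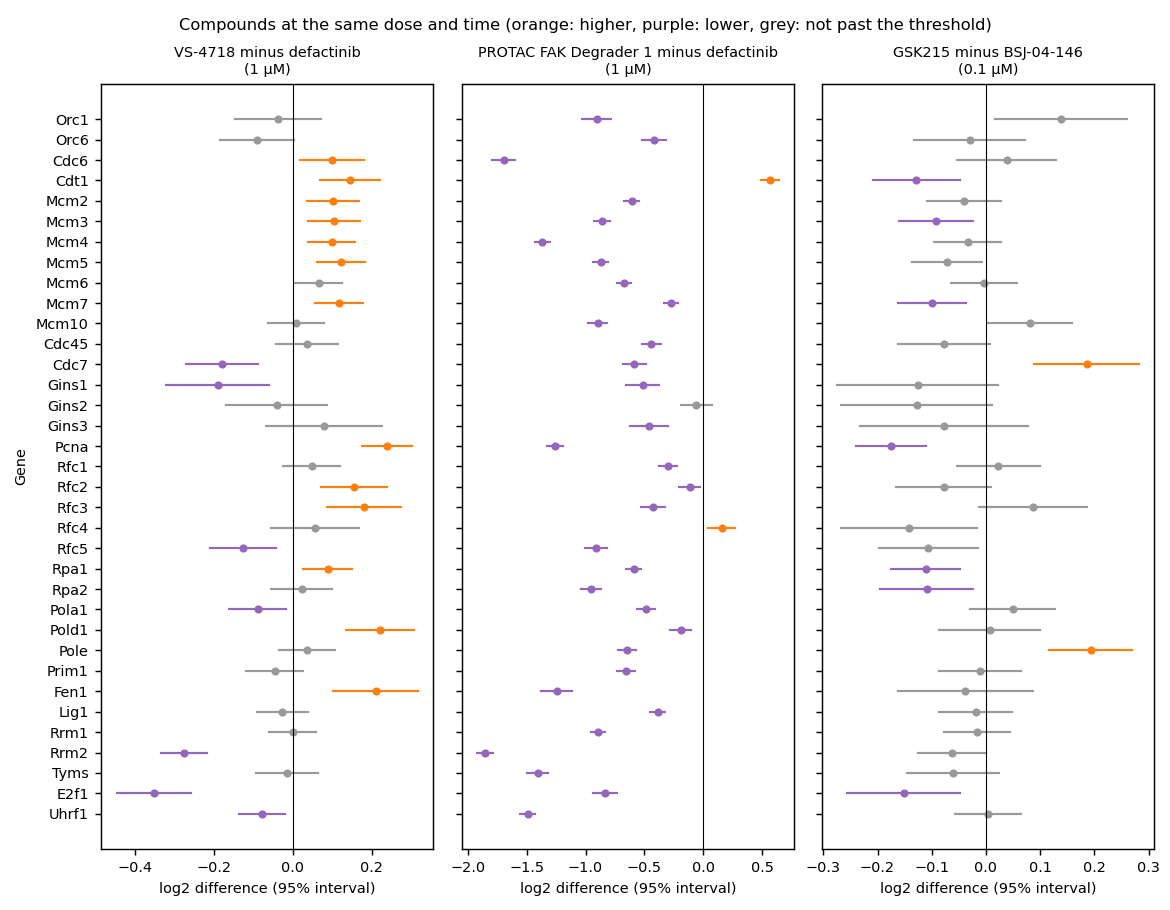
Log2 difference between compounds at the same dose, with its 95% interval, for each of the 35 genes (x axes differ in scale between panels); orange is higher and purple lower at an edgeR adjusted p under 0.05, grey did not pass. The panel of PROTAC FAK Degrader 1 against defactinib reaches -1.86, while all points of GSK215 against BSJ-04-146 lie between -0.17 and 0.19.

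Other genes of the pathway, are given by role, with counts to be read against the share of all genes tested. That share was 32.7% lower and 34.1% higher with PROTAC FAK Degrader 1, 27.2% and 27.4% with GSK215, and 26.9% and 27.7% with BSJ-04-146. Of 26 further replication proteins, PROTAC FAK Degrader 1 lowered 16 and raised 7. The extremes were Dna2, a nuclease and helicase that trims flaps, at 62.5, 59.1 and 59.1 CPM in DMSO and 13.5, 14 and 13.3 with the compound (-2.15, adjusted p = 2.0e-30), and Pold4, a small subunit of polymerase delta, at 12.6, 13.2 and 12.2 against 40.8, 35.1 and 37.7 (1.58, adjusted p = 4.1e-21). GSK215 lowered 20 of the 26 and raised 2, and BSJ-04-146 lowered 19 and raised 3, with the licensing subunit Orc2 the lowest under both (-0.64 and -0.68). Among 12 fork protection and alternative loader genes PROTAC FAK Degrader 1 lowered 10, led by the checkpoint mediator Clspn (-1.19), and raised the checkpoint kinase Atr (0.24).

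For nucleotide supply, PROTAC FAK Degrader 1 lowered 7 of 9 other genes (32.7% of all genes were lower), led by thymidine kinase Tk1 (-1.10). It raised 1, Rrm2b, the alternative small subunit of ribonucleotide reductase, from 20.5, 21.7 and 23.2 CPM in DMSO to 40.5, 39.7 and 39.8 (0.87, adjusted p = 8.2e-15). The libraries of the 2 small reductase subunits thus moved in opposite directions with this compound. Rrm2b fell with GSK215 and BSJ-04-146 (-0.29 and -0.53). Of 8 genes for replication-coupled chromatin, 7 were lower with PROTAC FAK Degrader 1, with the histone chaperone Nasp the lowest (-1.41).

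Among 12 E2F and pocket protein genes, PROTAC FAK Degrader 1 lowered 8 (32.7% of all genes were lower and 34.1% higher), led by the repressor E2f8 (-1.16), and raised 3, led by Rb1, which encodes the pocket protein RB (1.08, adjusted p = 2.9e-18). GSK215 and BSJ-04-146 also raised Rb1 (0.36 and 0.47). All 6 S phase cyclin and CDK genes were lower with each PROTAC, where 26.9% to 32.7% of all genes were lower, with cyclin E1, Ccne1, at -1.92 for PROTAC FAK Degrader 1 and -0.33 and -0.31 for GSK215 and BSJ-04-146. Defactinib instead raised Ccne1 (0.35, adjusted p = 2.5e-07). All 8 G2 and mitosis markers were lower with each PROTAC, with medians of -0.46, -0.30 and -0.25, and VS-4718 lowered 6 of the 8 (median -0.17, with 18.9% of all genes lower). Their summed level ran from 2900 to 2940 CPM in DMSO, 2040 to 2070 with PROTAC FAK Degrader 1, 2440 to 2540 with GSK215, 2370 to 2410 with BSJ-04-146 and 2490 to 2660 with VS-4718, and their part in the fall of the replication genes was not tested.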

How the data were processed

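Poly(A) RNA of MS03 cells was sequenced by a service provider from frozen pellets (24 libraries, 8 groups). The authors deposited raw read counts per gene. Per the submitters' processing notes, reads were trimmed with Trimmomatic 0.36, aligned with STAR 2.5.2b to GRCm38 and counted with featureCounts (Subread 1.5.2); the annotation and strand setting are not given in the sources used here. Library columns were assigned by the library number in the labels.

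The members and the other gene lists were chosen with earlier results of these data known. All genes passing filterByExpr (16070 of 49315) were fitted in edgeR 4.0.16 (R 4.3.3) with TMM factors and the quasi-likelihood test, 1 coefficient per group, no covariates and 16 residual degrees of freedom. P-values were Benjamini-Hochberg adjusted over all genes tested, with a threshold of 0.05. CPM are TMM-scaled. In each role group the members with the widest and narrowest range of group means of log2(CPM + 4) are given by library, besides Pcna, Mcm2, E2f1 and each compound's largest rise and fall past the threshold; kinase inhibitor libraries are mostly summarised. Naming any other member was a choice made with its values in view. The fit was tested on simulated counts. Totals of 14472462 to 27449516 counts limit the precision of low genes. Positions and exon lengths are from GENCODE M21 (GRCm38); 30 of 35 members had promoters in the RefSeq table (GRCm38.p6), and Mcm4, Gins1, Gins2, Rfc2 and Pole did not. Alternatives were DESeq2 1.42.0, limma 3.58.1 on log2(CPM + 4), library totals, no filter, only the 6 libraries compared, a replicate block, thinned libraries, a threshold of 0.01 and leaving out each library. The value of 1 marker gene is not reported here.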

Additional observations from a re-analysis of the deposited data

How the results depend on the processing

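Of 33 members called with PROTAC FAK Degrader 1, 32 kept direction and side of the threshold of 0.05 under all alternatives; the exception, Rfc2, was lost with library totals. The same held for 24 of 31 with GSK215, 24 of 31 with BSJ-04-146, 12 of 18 with defactinib, 11 of 22 with VS-4718, 1 of 4 with GSK2256098 and 3 of 5 with ifebemtinib, and between compounds for 10 of 20, 32 of 34 and 3 of 9.

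With library totals the median of the members was -0.094 with defactinib, -0.051 with VS-4718 (7 higher, 11 lower), 0.001 with GSK2256098 (sign turned), -0.62 with PROTAC FAK Degrader 1, -0.18 with GSK215 (5 higher) and -0.16 with BSJ-04-146 (4 higher). The values of Pole with GSK215 (0.017), Cdt1 (0.007) and Mcm7 (0.032) with BSJ-04-146 and Rfc4 with PROTAC FAK Degrader 1 (0.013) turned positive. That scale raises the median of all genes, most with the PROTACs at 0.1 µM. With no filter 1 gene was higher with VS-4718 and 1 with BSJ-04-146 (median -0.29), and 3 were lower with GSK215 against BSJ-04-146. With thinned libraries 1 was higher with VS-4718, and the medians were -0.12 with defactinib and -0.29 with BSJ-04-146. With limma the median with PROTAC FAK Degrader 1 was -0.68, and with DESeq2 1 gene was higher with BSJ-04-146. With only the 6 libraries compared, 2 were higher with GSK215 and 4 lower with GSK215 against BSJ-04-146. At a threshold of 0.01, 1 was higher with VS-4718, 1 lower with GSK2256098, 0 higher with ifebemtinib, 1 higher with BSJ-04-146, 3 lower with VS-4718 against defactinib, 1 higher with PROTAC FAK Degrader 1 against defactinib and 2 lower with GSK215 against BSJ-04-146. The cause of these shifts was not tested.

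Leaving out 1 library at a time gave medians of -0.13 to -0.10 with defactinib, -0.107 to -0.077 with VS-4718, -0.022 to -0.009 with GSK2256098, -0.022 to 0 with ifebemtinib, -0.72 to -0.69 with PROTAC FAK Degrader 1, -0.32 to -0.29 with GSK215 and -0.29 to -0.25 with BSJ-04-146. Counts of genes higher were 1 to 2 with VS-4718, 1 to 2 with ifebemtinib, 0 to 2 with GSK215, 1 to 3 with BSJ-04-146, 9 to 12 with VS-4718 against defactinib and 1 to 2 with PROTAC FAK Degrader 1 against defactinib. Counts lower were 14 to 18 with defactinib, 15 to 20 with VS-4718, 1 to 3 with GSK2256098, 29 to 30 with GSK215, 28 to 29 with BSJ-04-146, 3 to 7 with VS-4718 against defactinib, 31 to 32 with PROTAC FAK Degrader 1 against defactinib and 2 to 5 with GSK215 against BSJ-04-146.

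Deviations from the group mean were weakly related between same-numbered drug and DMSO libraries (r from -0.183 to 0.153). Differently numbered libraries were not compared in this way, so a shared culture or day cannot be decided from these values. With the replicate block the counts of genes lower became 18 with VS-4718 and 6 with GSK215 against BSJ-04-146, and the other counts were as before. The E2F share in the 250 bases before the start was 30%. With all libraries thinned to the smallest total, 206 of 214 single-gene results kept direction and side of the threshold, and 8 lost their call.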
